A study of Sus scrofa with 2 samples.

Results

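Cytosolic ribosomal proteins are the protein components of the ribosome that translates nuclear-encoded messages in the cytoplasm. They were taken from the deposited table as every entry whose Ensembl pig gene identifier has a symbol of the RPL or RPS series, the stalk proteins RPLP0, RPLP1 and RPLP2, or RPSA, leaving out the RPS6 kinases. By this rule 27 of 27987 entries were members, 12 of the large subunit and 15 of the small subunit. The table of pig gene names holds 56 identifiers with such a symbol, and the other 29 (among them RPLP0, RPSA, RPL3 and the muscle paralog RPL3L) are not analysed here. The members are therefore a subset of the ribosome's proteins, set by the annotation, not the whole particle.

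The tissue was longissimus dorsi, a long back muscle, of crossbred barrows (castrated males from Duroc boars and Yorkshire-Landrace sows). The heat arm (H30) was kept at 30 °C and the control arm (CON) at 22 °C, each for 21 days and each with 8 pigs. The 16 pigs weighed 79.0 ± 1.5 kg and came from 8 litters, and their age is not stated. Each arm is represented by 1 poly(A)-selected messenger RNA library, and whether it pools the RNA of several pigs is not stated either. With 1 library per arm there is no replicate check, so an effect of temperature cannot be told apart from differences among the pigs, their handling or the libraries, and no test across pigs was possible. The H30 library held an estimated 22863584 reads and the CON library 23608242, as recovered from the deposited values.

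A ribosome holds 1 copy of most of its proteins, with the acidic stalk proteins as the known exception, and unassembled ribosomal proteins are broken down. Their messages begin with a terminal oligopyrimidine tract (a C followed by a run of pyrimidines, hence TOP messages), through which the nutrient-sensing kinase mTOR and the RNA-binding protein LARP1 control their translation in mammalian cells. Muscle is a large store of body protein, and its capacity to make protein rests in part on its number of ribosomes. Poly(A) libraries measure the messages of ribosomal proteins, not ribosomal RNA, assembled ribosomes or the rate of translation.

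As a group, ribosomal protein messages stood at nearly the same level in both libraries. Their summed RPKM (read count normalised for gene length and sequencing depth) was 18337 in H30 and 18344 in CON, a ratio of 0.9996. They took 2.62% of all summed RPKM in H30 and 2.56% in CON, where all entries summed to 698995 RPKM in H30 and 715684 in CON. The large subunit summed to 9013 RPKM in H30 and 9043 in CON and the small subunit to 9325 RPKM in H30 and 9301 in CON. The near equality of the large subunit and of the whole group rests in part on RPLP1, at 4601 RPKM in H30 and 4851 in CON. Without RPLP1 the members summed to 13736 RPKM in H30 and 13492 in CON, a ratio of 1.02. With RPLP1 included, the large subunit sum was 0.967 of the small subunit sum in H30 and 0.972 in CON. In bulk muscle, fewer cells of a type and less RNA per cell cannot be told apart.

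No member was 1.5-fold apart on the log2(RPKM + 1) scale, the size used here in place of a test. Of 13191 entries with a mean of at least 1 RPKM, 3.44% were at least 1.5-fold higher in H30 and 2.37% at least 1.5-fold lower, or 5.81% in all, against 0 of 26 measured members. At a smaller size, a log2 ratio of 0.32, 1 member was higher (RPL14) and 0 were lower, where 12.7% of all entries were higher and 7.77% lower. Highly expressed genes differed less between the libraries, and all members except the paralogs described below are highly expressed. Among 1012 entries with a mean of at least 50 RPKM, 4.64% were past that size on the higher side and 4.15% on the lower side, against 1 and 0 of 23 members. Past 1.5-fold, only 8 of these 1012 entries were higher and 13 lower, so 0 of 23 members sets the members little apart from them.

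The median log2 ratio, H30 over CON, was 0.02 over 26 members (0.02 for the 11 of the large subunit and 0.02 for the 15 of the small subunit). Over all 13191 entries it was 0.05, and over the 1012 entries of at least 50 RPKM it was 0.01. Centred on the median of all entries, the subunit medians were -0.0274 and -0.0318 (large and small), so their sign depends on the scaling. The ratio was above 0 for 17 of 26 members, 65.4%, next to 58.8% of all entries, and for 15 of 23 members next to 52.2% of the entries of at least 50 RPKM, while 10 of 26 members lay above the median of all entries. Member ratios ran from -0.24 (RPS21) to 0.33 (RPL14), with an SD of 0.13 across members. The SD was 0.24 across entries of at least 50 RPKM, of which 95% lay between -0.39 and 0.38. The quartiles were -0.04 and 0.11 for the 26 members and -0.10 and 0.12 for these entries. Levels were not matched, with a median in H30 of 553 RPKM for the members and 105 RPKM for these entries. Large subunit members spread more (SD 0.16) than small subunit members (SD 0.11), and this difference was not tested.

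**Figure D1:**
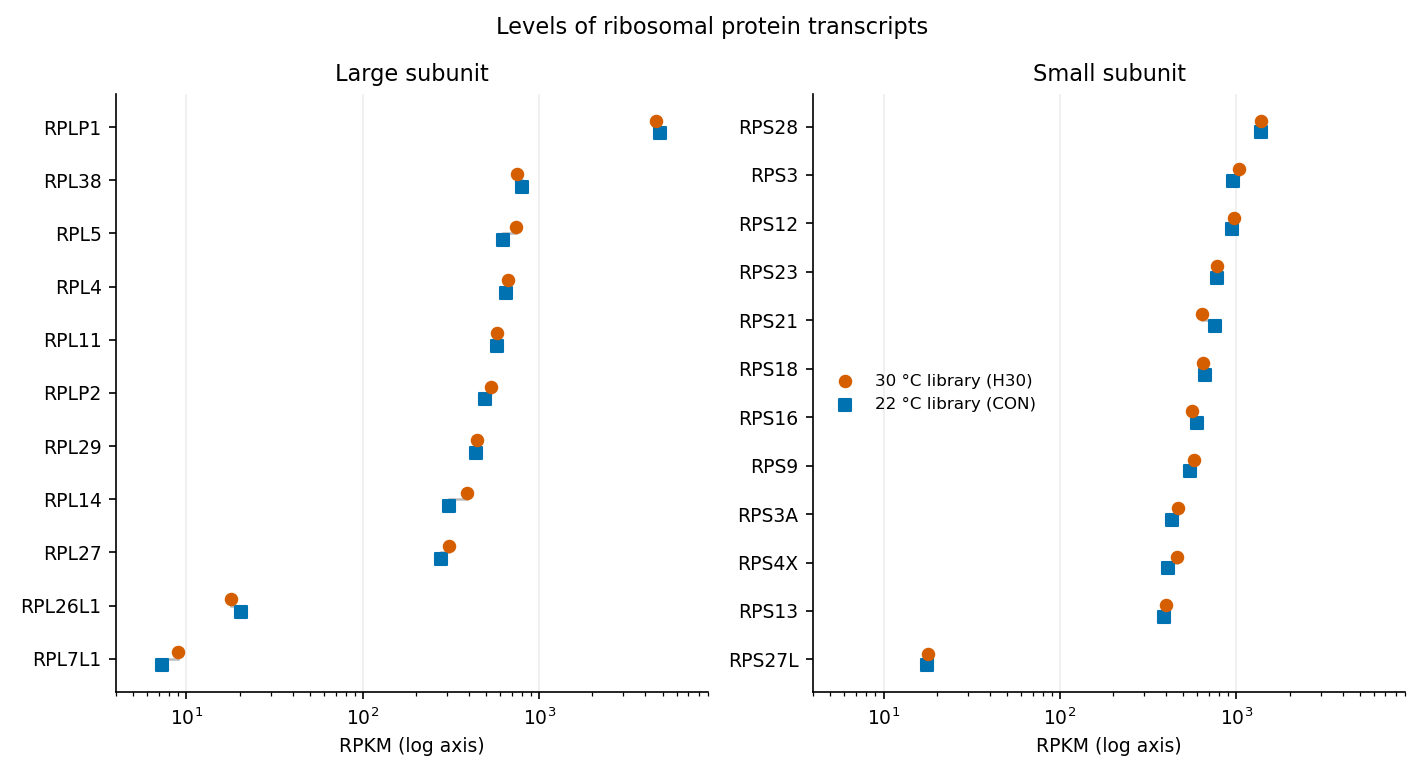
RPKM of 23 of the 26 ribosomal protein genes above 0 (log axis), large subunit left and small subunit right, with circles for the 30 °C library and squares for the 22 °C library. RPLP1 is highest at 4601 RPKM in H30 and 4851 in CON, the 3 paralogs are at 20.4 RPKM or less, and the paired symbols of each gene lie close together.

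Members differed far more from each other than between libraries. Leaving out 4 paralogs, the remaining 23 ran from 308 RPKM (RPL27) to 4601 RPKM (RPLP1) in H30, a 14.9-fold range, and from 278 to 4851 RPKM in CON, with the same 2 genes at the ends. RPKM is scaled by gene length, so these levels can be set side by side, as far as the authors' gene lengths are right. RPLP1 was 8.03 times the median of the 23 in H30 and 8.12 times in CON, and ranked 20 among all entries in H30 and 22 in CON. Without it the range was 4.49-fold in H30 and 4.95-fold in CON, with RPS28 on top, and 20 of the 23 lay between 250 and 1000 RPKM in both libraries. The order of levels was nearly the same, with a Spearman rho of 0.984 over 26 members (points that share the same libraries, gene lengths and any shared reads). In it 11 members kept their rank and none moved by more than 3 places.

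Whole reads could be recovered for all 26 members above 0, as the smallest pair of reads and gene length that gives both deposited values. Apart from the paralogs this was 3698 to 55543 reads per gene in H30 and 4513 to 60473 in CON. Exact 95% intervals of the RPKM ratio from these reads cover counting error only, and are too wide where the true reads are a multiple of the smallest. The interval lay above 1 for 11 members (5 of the large and 6 of the small subunit), below 1 for 6 (2 and 4) and held 1 for 9 (4 and 5). Intervals were not counted over all entries or over genes of like depth, so these counts do not set the members apart from other genes. They also depend on the scaling, with 8 above and 12 below 1 when centred on the median of all entries. When rescaled without the 10 highest entries, 16 lay above and 5 below. The median ratio of all entries above 0 in both libraries was 1.04, and 7 member intervals lay above that value, 12 below it and 7 held it. Counting error is therefore smaller than many of the differences among members, while the spread between pigs is unknown.

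**Figure D2:**
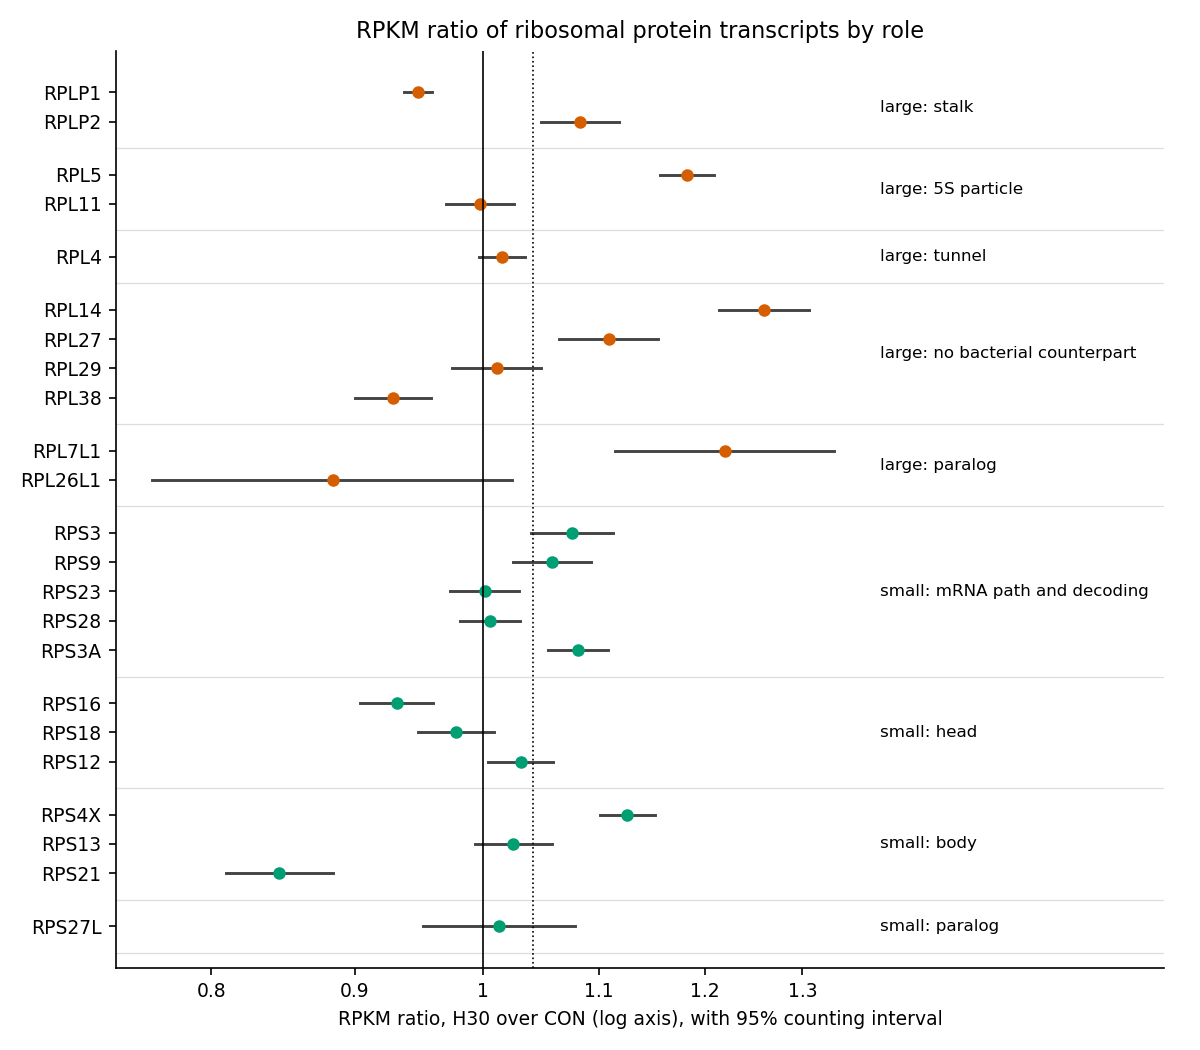
RPKM ratio, H30 over CON, of 23 of the 26 ribosomal protein genes above 0 (log axis), grouped by role, with exact 95% counting intervals as bars. The solid line marks 1 and the dotted line the median of all entries, 1.04. RPL14 (1.26) and RPS21 (0.846) lie at the ends, and stalk and 5S partners lie apart.

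The ribosomal stalk recruits elongation and other translation factors to the large subunit, and RPLP1 and RPLP2 are its acidic proteins, which pair with each other. RPLP1 (ENSSSCG00000004970) was at 4601 RPKM in H30 and 4851 RPKM in CON, on at least 55543 reads in H30 and 60473 in CON, a ratio of 0.948 (counting interval 0.938 to 0.959). It alone took 25.1% of summed member RPKM in H30 and 26.4% in CON. RPLP2 (ENSSSCG00000012842) was at 530 RPKM in H30 and 490 in CON, a ratio of 1.08 (1.05 to 1.12). The partners thus lay on opposite sides of 1, with intervals that do not overlap. RPLP1 stood 8.68-fold above RPLP2 in H30 and 9.91-fold in CON, a proportion within a library that no rescaling of the libraries changes.

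RPL5 and RPL11 join 5S ribosomal RNA in a particle that is built into the large subunit, and outside the ribosome they bind MDM2, the ligase of p53. RPL5 (ENSSSCG00000006899) was at 735 RPKM in H30 and 621 in CON, a ratio of 1.18 (1.16 to 1.21). RPL11 (ENSSSCG00000024260) was at 573 RPKM in H30 and 574 in CON, a ratio of 0.997 (0.970 to 1.03). These partners also parted, with RPL5 1.28 times RPL11 in H30 and 1.08 times in CON. RPL4 (ENSSSCG00000004945), which lines the exit tunnel of the growing chain, was at 662 RPKM in H30 and 652 in CON, a ratio of 1.02 (0.997 to 1.03).

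RPL14, RPL27, RPL29 and RPL38 belong to the large subunit proteins without a bacterial counterpart. RPL14 (ENSSSCG00000011272) was at 388 RPKM in H30 and 308 in CON, on at least 6296 reads in H30 and 5163 in CON. Its ratio of 1.26 (1.21 to 1.31) was the highest of the 26, and it was the only member with a log2 ratio past 0.32. RPL27 (ENSSSCG00000025507) was at 308 RPKM in H30 and 278 in CON, a ratio of 1.11 (1.06 to 1.16). RPL29 (ENSSSCG00000027573) was at 443 RPKM in H30 and 438 in CON, with an interval that holds 1 (0.975 to 1.05). RPL38 (ENSSSCG00000017239), whose loss in mice shortens the tail and alters the axial skeleton, was at 746 RPKM in H30 and 803 in CON, a ratio of 0.929 (0.901 to 0.958). Within this group of 4 the ratios thus ran from below 1 to the top of all members, without a shared direction.

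In the small subunit, RPS3 and RPS9 line the channel where the message enters. RPS3 (ENSSSCG00000014855) was at 1028 RPKM in H30 and 956 in CON, a ratio of 1.08 (1.04 to 1.11). RPS9 (ENSSSCG00000029785) was at 578 RPKM in H30 and 546 in CON, a ratio of 1.06 (1.03 to 1.09). Both ratios are near the 1.04 of all entries, and their intervals hold it. RPS23 (ENSSSCG00000014133), at the decoding centre where codon and anticodon are matched, was at 781 RPKM in H30 and 780 in CON (ratio 1.001). RPS28 (ENSSSCG00000013597) and RPS3A lie near the exit of the message, and RPS28, the small subunit gene with the highest level, was at 1384 RPKM in H30 and 1376 in CON (ratio 1.01). RPS3A (ENSSSCG00000009019) was at 468 RPKM in H30 and 432 in CON, a ratio of 1.08 (1.06 to 1.11), above the 1.04 of all entries.

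The head of the small subunit swivels as messenger and transfer RNA move through the ribosome. RPS16 (ENSSSCG00000020817), which reaches towards the transfer RNA in the P site, was at 560 RPKM in H30 and 601 in CON, a ratio of 0.932 (0.904 to 0.960). RPS18 (ENSSSCG00000001502), which contacts the large subunit, was at 649 RPKM in H30 and 664 in CON, with an interval that holds 1 (0.948 to 1.01). RPS12 (ENSSSCG00000004177), in the part of the head called the beak, was at 971 RPKM in H30 and 941 in CON, a ratio of 1.03 (1.004 to 1.06). The sign of RPS12 and RPS18 depends on the scaling, since RPS12 was below 0 when centred (log2 ratio -0.01) and RPS18 above 0 when rescaled without the 10 highest entries (0.01). Of all entries, 41.2% had a log2 ratio below 0.

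Among proteins of the small subunit body, RPS4X and RPS21 marked the ends of the small subunit. RPS4X (ENSSSCG00000012405), the X-linked form of a protein for which humans also carry a Y-linked gene, was at 459 RPKM in H30 and 408 in CON, a ratio of 1.13 (1.101 to 1.152). RPS21 (ENSSSCG00000021825), one of the smallest ribosomal proteins, was at 642 RPKM in H30 and 759 in CON, on at least 3698 reads in H30 and 4513 in CON. Its ratio of 0.846 (0.810 to 0.884) was the lowest of the 26. RPS13 (ENSSSCG00000013381) was at 398 RPKM in H30 and 388 in CON (ratio 1.03, interval 0.993 to 1.06). Between RPL14 and RPS21, the 2 ends, the ratios differed 1.49-fold.

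Paralogs of ribosomal proteins stood at a small part of the RPKM of the standard members. RPKM is scaled by gene length, and the smallest fitting lengths were 4868 bp for RPS27L and 5210 bp for RPL7L1. They were 824 bp for RPL26L1 and at most 2407 bp for the members other than paralogs. RPS27L had at least 1987 reads in H30 and 2025 in CON. How far length accounts for the low RPKM of RPS27L and RPL7L1 was not tested. RPL26L1 (ENSSSCG00000016989), a copy of RPL26, was at 18.0 RPKM in H30 and 20.4 in CON, from no fewer than 339 reads in H30 and 396 in CON, and its interval of 0.762 to 1.02 includes 1. RPS27L (ENSSSCG00000023158), a relative of RPS27 that p53 induces in human cells, was at 17.9 RPKM in H30 and 17.6 in CON (ratio 1.01, interval 0.952 to 1.08). RPL7L1 (ENSSSCG00000026472), a relative of RPL7 found on precursors of the large subunit in human cells, was lowest at 8.92 RPKM in H30 and 7.31 in CON, a ratio of 1.22 (1.12 to 1.33) and next to RPL14 in the order of ratios. RPL10L (ENSSSCG00000005001), a copy of RPL10 used in the male germ line of mice, was listed at 0 in both libraries, and a count of 0 allows up to 3 reads. Processed pseudogenes of ribosomal proteins are common in mammalian genomes, and the treatment of reads with several matches is not stated, so the level and ratio of any single member are uncertain.

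Of other genes tied to the ribosome, the TOP messages outside the ribosomal proteins had a higher median than the members. Of 21 listed genes 14 were measured, and 13 of these had a log2 ratio above 0 (58.8% of all entries did). The median of the 14 was 0.16, and 12 lay above the median of all entries. Past 1.5-fold were 0 of the 14, next to 5.81% of all entries. PABPC1, the poly(A)-binding protein, was at 75.7 RPKM in H30 and 58.4 in CON (log2 ratio 0.37), and EIF4A2, an RNA helicase of initiation, at 544 RPKM in H30 and 440 in CON (0.30). EIF3A, the scaffold of an initiation complex, was lowest at 32.1 RPKM in H30 and 32.3 in CON (-0.01), next to the filament gene VIM at 129 RPKM in H30 and 128 in CON (0.02). EEF2, the elongation factor that moves the ribosome along the message, was at 808 RPKM in H30 and 697 in CON (0.21), and EEF1B2, a nucleotide exchange subunit of elongation, at 560 RPKM in H30 and 510 in CON (0.14), both singled out after their values were seen. Both lists are described as counts and medians of 1 library per arm, and their difference was not tested.

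**Figure D3:**
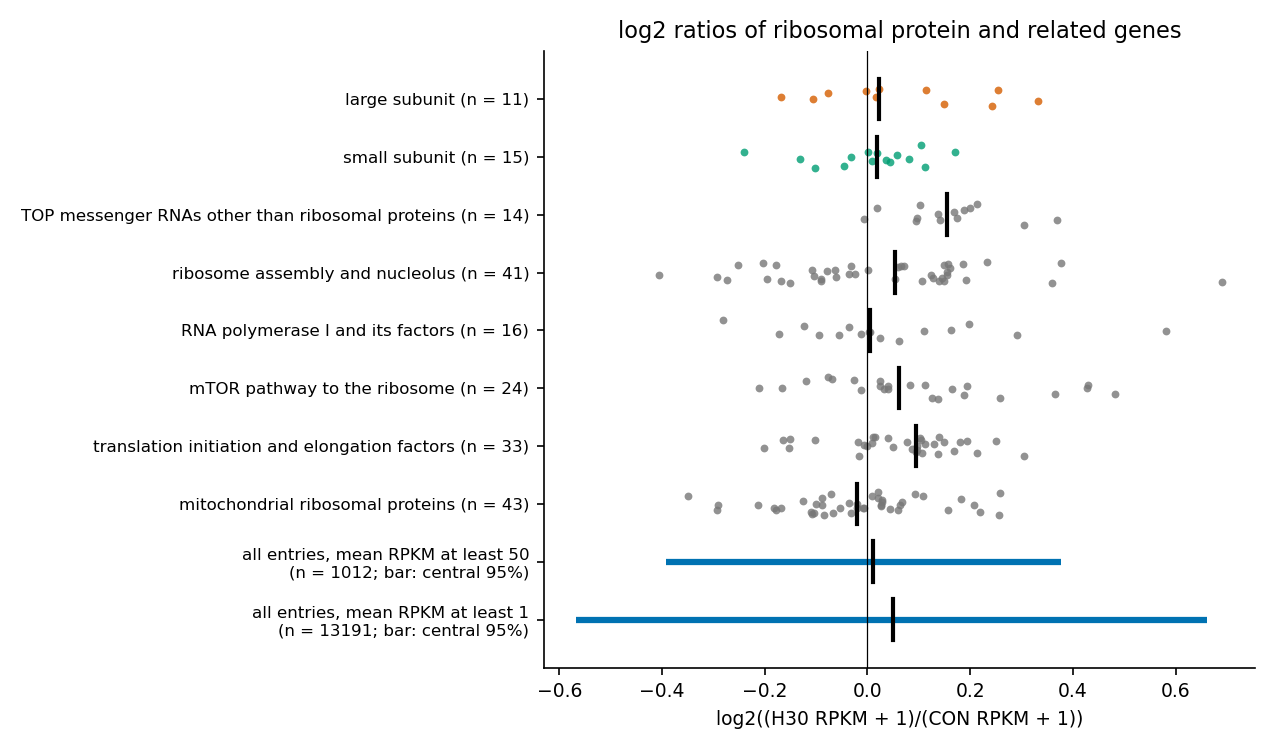
log2 ratio, H30 over CON, of single genes (points) in the ribosomal protein subunits and 6 related lists, with the median of each as a black tick, and the central 95% of all entries as bars. Subunit medians are 0.02, the TOP list lies at 0.16 and the mitochondrial ribosomal proteins at -0.02 (0.02 when rescaled without the 10 highest entries).

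Initiation and elongation factors, matched by symbol pattern, had a median of 0.09 over 33 genes with 24 above 0, or 72.7%. Of the 33, 8 are also on the TOP list. Among all entries, 58.8% were above 0 and 5.81% were 1.5-fold apart. Mitochondrial ribosomal proteins, which build the separate ribosome of that organelle, had a median of -0.02 over 43 genes with 19 above 0, or 44.2%. Rescaled without the 10 highest entries, their median was 0.02 and 25 were above 0. They took 0.138% of summed RPKM in both libraries. By log2 ratio they ran from MRPL55 (-0.35, at 4.12 RPKM in H30 and 5.52 in CON) to MRPL3 (0.26, at 18.6 RPKM in H30 and 15.4 in CON). Of these genes, 0 of 43 were 1.5-fold apart. Assembly and nucleolar genes had a median of 0.05 over 41 genes with 22 above 0, or 53.7%. NVL, an ATPase that releases assembly factors from the large subunit, was the only gene of these lists past 1.5-fold, at 4.78 RPKM in H30 and 2.58 in CON on at least 70 reads in H30 and 39 in CON (log2 ratio 0.69), and UTP15, a small subunit assembly factor, came next at 2.35 RPKM in H30 and 1.58 in CON. The lowest were RPF2, a 5S particle assembly factor, at 3.08 RPKM in H30 and 4.41 in CON (-0.41), from no fewer than 21 reads in H30 and 31 in CON and with an interval of 0.382 to 1.26, and GTPBP4, a GTPase of large subunit assembly, at 4.66 RPKM in H30 and 5.94 in CON (-0.29).

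RNA polymerase I transcribes the precursor of most ribosomal RNA. Its subunits and factors had a median of 0.00 over 16 genes with 9 above 0, or 56.25% next to 58.8% of all entries. POLR2F, a subunit shared by the nuclear polymerases, was lowest at 81.0 RPKM in H30 and 98.6 in CON (-0.28). TTF1, a termination factor, was highest at 2.85 RPKM in H30 and 1.57 in CON (0.58). The mTOR list had a median of 0.06 over 24 genes with 17 above 0, or 70.8%, and 0 past 1.5-fold (5.81% of all entries were). SESN1, an inhibitor of mTOR complex activity, was at 49.2 RPKM in H30 and 34.97 in CON (0.48), and MYC, a transcription factor that drives ribosome production, at 3.94 RPKM in H30 and 2.66 in CON (0.43). RPS6KB2, one of the kinases of RPS6, was at 14.6 RPKM in H30 and 17.0 in CON (-0.21) and AKT2, a kinase of insulin signalling, at 77.5 RPKM in H30 and 87.2 in CON (-0.17). FAU, whose product is cleaved into a small subunit protein and a ubiquitin-like part, and RPL36AL, a copy of RPL36A, do not meet the symbol rule. FAU was at 5.86 RPKM in H30 and 5.97 in CON, on at least 706 reads in H30 and 742 in CON. RPL36AL was at 5.44 RPKM in H30 and 5.80 in CON, on at least 227 reads in H30 and 250 in CON. Both were far below the standard members in RPKM, with ratio intervals that hold 1. The gene lengths that the authors used for these entries were not checked, so a low RPKM need not mean few messages.

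Of the skeletal muscle markers 5 of 15 were matched, and ACTA1, skeletal muscle actin, stood at 65219 RPKM in H30 and 68749 in CON, the most abundant of the 5. The 5 summed to 128343 RPKM in H30 and 134114 in CON, with MYL1 and DES higher in H30. Lists of other cell types were small beside this, the largest being 4 fibroblast markers at 653 RPKM in H30 and 698 in CON. Of these DCN was higher in H30 and the others were lower. Adipocyte markers (2 genes) summed to 10.1 RPKM in H30 and 17.6 in CON. Endothelial markers (2 genes) summed to 132 RPKM in H30 and 116 in CON, with PECAM1 higher in H30 and KDR lower. Macrophage markers (3 genes) summed to 7.79 RPKM in H30 and 6.11 in CON. Only CD68 was higher in H30 (5.36 RPKM, 3.61 in CON), and CSF1R and MARCO were lower. Red blood cell markers (3 genes) summed to 114 RPKM in H30 and 90.6 in CON. HBM, ALAS2 and HBB were all higher in H30, and the adipocyte markers PLIN1 and CIDEC were both lower. Across the lists no single direction held, and several lists were split. Lymphocyte markers (3 genes) summed to 3.00 RPKM in H30 and 2.21 in CON. Only CD2 was higher in H30 (1.81 RPKM, 0.750 in CON), and CD3D and MS4A1 were lower. The smooth muscle marker ACTA2 was at 67.9 RPKM in H30 and 52.0 in CON and the satellite cell marker MYF5 at 0.598 RPKM in H30 and 1.02 in CON. Their part in the small differences among ribosomal proteins was not tested.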

How the data were processed

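The authors deposited 1 RPKM value per gene and library. The Sscrofa10.2 build is listed per the submitters' processing notes, as are Cufflinks 1.3.0, TopHat 1.4.0 and Bowtie, without their roles. The read counting, the handling of multiple matches and the gene lengths used are not given in the sources used here. Symbols came from a table of pig gene names, which matched 11374 of 27987 entries. No genome was used here, and no sequences or coordinates are given.

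Library totals were recovered from the steps between low values. With them, all 26 members above 0 gave whole reads in both libraries at a gene length up to 6000 bp (252 to 5210 bp), within the printed precision. With totals 1000 reads larger, 0 of 26 did. The smallest fitting pair was taken, and true reads can be a multiple of it. Ratio intervals are exact (Clopper-Pearson, 95%) and cover counting error only, since reads copied by PCR are not independent molecules. A read on 1000 bp was worth 0.0437 RPKM in H30 and 0.0424 in CON.

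The log2 ratio is log2((H30 + 1)/(CON + 1)) for entries with a mean RPKM of at least 1, which understates differences of low genes. With 1 library per arm no p-value is given. Genes were named by a fixed rule: the 3 highest members by level and the 4 highest and 4 lowest by ratio in each subunit, paralogs, listed functional proteins, and the 2 highest and 2 lowest of each related list. The remaining members are described too, except 3 that enter sums, counts and medians but are not reported here one by one. Members and lists were chosen with earlier results of these data known. Steps were tested on simulated reads with Python 3.11.15, numpy 2.4.6, pandas 2.3.3 and scipy 1.17.1.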

Additional observations from a re-analysis of the deposited data

How the results depend on the processing

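The log2 ratio of each member, and the medians and counts past 1.5-fold of both subunits and the 6 related lists, were recomputed with pseudocounts of 0.1 and 5, no filter, means of at least 5 and 50 RPKM, 3 rescalings, and the highest or the summed entry per symbol. No paired analysis was possible because each arm has 1 library. The counts of 0 members past 1.5-fold held in all of these, and at a log2 ratio of 0.32 they became 1 for the large and 0 for the small subunit. The subunit medians took the other sign with centring on the median of all entries (large -0.0274, small -0.0318) and with trimmed mean rescaling (-0.0372 and -0.0385), and were 0.0659 and 0.0593 when rescaled without the 10 highest entries. Of 26 members, 10 changed sign under at least 1 rescaling, among them RPL11, RPL29, RPL4, RPS12, RPS13, RPS18, RPS23, RPS27L and RPS28, all within 0.06 of 0 as deposited. Members above 0 numbered 10 when centred, 9 with the trimmed mean and 19 without the 10 highest entries. The share of summed RPKM was 4.13% in H30 and 4.01% in CON without the 10 highest entries, 2.74% and 2.68% over Ensembl identifiers, and 1.97% and 1.89% without RPLP1. The TOP list had a median of 0.10 to 0.20 and 0 genes past 1.5-fold throughout, with 12 of 14 genes above 0 when centred and 14 without the 10 highest entries. The mitochondrial list had a median of 0.02 without the 10 highest entries (25 of 43 above 0). The assembly median was -0.0027 with the trimmed mean, -0.03 at means of at least 5 RPKM and -0.06 at 50 RPKM, where 2 genes were left. The polymerase I median was -0.05 when centred or with the trimmed mean, -0.06 at 5 RPKM and -0.09 at 50 RPKM. Past 1.5-fold, the assembly list had 0 genes with a pseudocount of 5 and at 5 and 50 RPKM, and the polymerase I list 1 with a pseudocount of 0.1 and without the 10 highest entries. The translation factor and mTOR medians stayed above 0. Member intervals above and below 1 numbered 8 and 12 when centred, 7 and 12 under trimmed mean rescaling, and 16 and 5 once the 10 highest entries were left out of the scaling. Recomputing the related lists and the intervals, and leaving out RPLP1 or the paralogs, was chosen after seeing the data. Depth limits the paralogs most, and the missing replicates limit every ratio.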
